A study of Mus musculus with 15 samples.

Results

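Bleomycin injury of the wild-type lung was described from 7 of the 15 small RNA libraries of the series, 4 made from mice given bleomycin and 3 from mice given phosphate-buffered saline (PBS), chosen by their labels alone. All 7 came from C57BL/6 mice, aged 11 weeks per the labels, with unaltered extracellular superoxide dismutase (EC-SOD). Bleomycin, an antibiotic that breaks DNA strands and injures lung tissue, went in through the trachea as 1 dose of 100 uL at 1 U/mL in PBS, and control mice received PBS by the same route. The other 8 libraries came from mice homozygous for the R213G form of EC-SOD, 4 given PBS and 4 bleomycin. They enter here only as a second set of values, in the filter and through a shared estimate of the spread. Lungs were taken at day 7, after the blood had been flushed from the vessels through the right ventricle, and RNA was made from the whole pulverized organ. Both sexes were used without a label for each mouse, and the labels do not say that each library is a separate mouse, so p-values measure the spread between these libraries. In whole lung, fewer cells of a type cannot be told apart from less RNA per cell.

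MicroRNAs (miRNAs) are short RNAs cut from a hairpin, whose arms give a mature 5p and a mature 3p strand. The more abundant strand is usually loaded into Argonaute, where it pairs with messenger RNAs mainly through its seed, bases 2 to 8 counted from the 5′ end, and lowers their output. In the lung, miRNAs are known for roles in leukocyte activation, epithelial identity and the deposition of matrix by fibroblasts, and many are strongly enriched in 1 cell type.

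The miRNAs on which the results turn are shown with the seed in capitals, as given by RefSeq for mouse build GRCm38.p6. The first set, of injury-linked miRNAs, rose except for miR-146a-5p, which has the same seed as miR-146b-5p.
miR-21a-5p: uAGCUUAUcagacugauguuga
miR-21a-3p: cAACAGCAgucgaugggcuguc
miR-132-3p: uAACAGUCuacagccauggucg
miR-212-3p: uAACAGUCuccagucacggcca
miR-146b-5p: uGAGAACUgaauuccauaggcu
miR-146a-5p: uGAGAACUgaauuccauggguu
miR-155-5p: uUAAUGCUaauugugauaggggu

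A second set shared the seed GGCAGUG and rose, with miR-34a on another chromosome than the neighbours miR-449a and miR-449c.
miR-34a-5p: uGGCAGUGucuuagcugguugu
miR-449a-5p: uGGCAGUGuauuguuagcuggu
miR-449c-5p: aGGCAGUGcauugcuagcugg

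Another set shared the seed CCCUGAG and fell, again from genes on different chromosomes.
miR-351-5p: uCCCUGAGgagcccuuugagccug
miR-125b-5p: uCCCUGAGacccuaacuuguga
miR-125a-5p: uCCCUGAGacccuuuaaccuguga

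The last set holds a red cell miRNA and miRNAs of the introns of Htr2c, which fell, and strands that rose from imprinted, epithelial and germline genes. The germline strands, miR-465c-5p and miR-465b-5p, were tested only because bleomycin libraries passed the filter, so that they were called is no support.
miR-451a: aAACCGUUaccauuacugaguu
miR-1298-5p: uUCAUUCGgcuguccagaugua
miR-448-3p: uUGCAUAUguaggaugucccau
miR-1912-3p: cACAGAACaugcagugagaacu
miR-184-3p: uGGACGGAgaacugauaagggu
miR-298-5p: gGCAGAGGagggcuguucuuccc
miR-335-3p: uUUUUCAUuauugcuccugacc
miR-465c-5p: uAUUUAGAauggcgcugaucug
miR-465b-5p: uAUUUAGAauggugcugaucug

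In that build the miR-21a strands lie on the minus strand at chr11:86584120-86584141 (5p) and chr11:86584082-86584103 (3p), in an exon of a transcript of Vmp1 in the GENCODE vM21 annotation. The neighbours miR-212-3p (chr11:75173443-75173464) and miR-132-3p (chr11:75173723-75173744) lie on the plus strand in an intron of the noncoding gene 1700016P03Rik. For miR-155-5p the position is chr16:84714143-84714165, plus strand, in an exon of its noncoding host Mir155hg. The hairpin of miR-146b-5p (chr19:46342790-46342811, plus strand) is in an intron of Mfsd13a, while miR-146a-5p (chr11:43374435-43374456, minus strand) has no annotated host on its strand. An intron of Cdc20b, a gene of multiciliated cells, holds miR-449c-5p (chr13:113036008-113036028) and miR-449a-5p (chr13:113037549-113037570). On the X chromosome, miR-1912-3p (chrX:147009493-147009514), miR-1298-5p (chrX:147064918-147064939) and miR-448-3p (chrX:147158281-147158302) lie in introns of Htr2c. The authors' build was not given in the sources used here, and no value below depends on these positions.

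Values look like the log2 of 1 plus an equalized count, that is, a read count brought to a common library size. This scale is an inference from the values. Of 1424 mature miRNAs, 818 had an equalized count above 5 in at least 3 of the 15 libraries and were tested. At the edge of that filter, the count of the library ranked 3 was just over 5 for miR-693-3p and 5.02 for miR-3097-5p, which were tested, and 4.97 for miR-181d-3p and miR-6925-5p, which were not. The 7 libraries summed to between 19087572 and 24759615 equalized counts, and in each of them the smooth muscle miRNA miR-143-3p was the most abundant. The endothelial miR-126a-3p stood at 18.99 to 19.50 and miR-34c-5p of airway epithelium at 16.29 to 17.11, so miRNAs of lung cell types were abundant throughout. The library codes of the bleomycin group all come before those of the PBS group. Their meaning is not given, and whatever follows that order cannot be told apart from the treatment.

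One control library stood apart. On a principal component analysis of the 7 libraries, the first component (50.3% of the variance) placed bleomycin libraries at -11.45 to -8.07, PBS replicates 1 and 2 at 15.83 and 14.22, and PBS replicate 3 at 7.80. The second component (17.2%) set PBS replicate 3 at -14.83 against -1.69 to 5.78 for the rest. That library held more of the striated muscle miRNA miR-133a-3p (16.24 against 14.19 and 13.88 in the other PBS libraries), of miR-1a-3p (11.57 against 9.49 and 9.19) and of the neural miR-9-5p (9.60 against 6.95 and 6.85). It held less of the liver miRNA miR-122-5p, at 4.06 against 8.83 and 8.95. Against the mean of the other PBS libraries, 84 tested miRNAs were at least 2-fold higher in it and 18 at least 2-fold lower. The examples miR-1a-3p, miR-9-5p and miR-122-5p were chosen after their values were seen. Over tested miRNAs with a mean above 8, the SD of log2 differences was 0.25 between PBS replicates 1 and 2. It was 0.45 and 0.51 between them and PBS replicate 3. Bleomycin replicate 1 also differed from its group, with 0.36 to 0.45 against 0.22 to 0.25 among bleomycin replicates 2 to 4. Many of the results that rest on PBS replicate 3 are given with and without it, though not all.

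**Figure D1:**
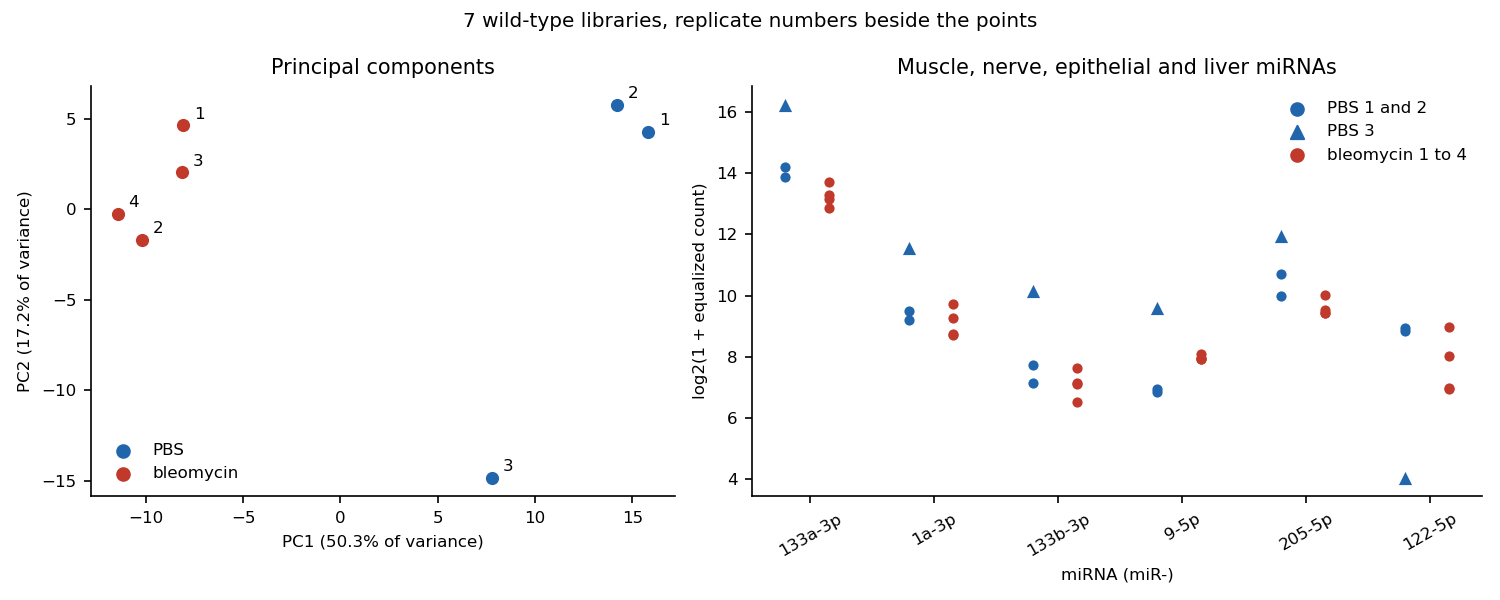
Left, scores of the 7 wild-type libraries on the first and second principal components, with the replicate number beside each point. Right, levels in log2(1 + equalized count) of 6 miRNAs of muscle, nerve, epithelium and liver in PBS replicates 1 and 2 (blue circles), PBS replicate 3 (blue triangles) and the 4 bleomycin libraries (red circles); PBS replicate 3 is highest for 5 of the 6 and lowest for miR-122-5p.

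After bleomycin 134 of the 818 tested miRNAs rose (16.4%) and 84 fell (10.3%), 26.7% in all, at an adjusted p under 0.05 by limma. The rises were larger than the falls: the median log2 difference was 1.04 among risers and -0.65 among fallers, and 70 risers and 24 fallers moved at least 2-fold. Risers were also less abundant, with a median PBS level of 6.36 against 10.63 for fallers and 5.95 for all tested miRNAs. In 121 of the 134 risers all 4 bleomycin libraries lay above all 3 PBS libraries, and in 78 of the 84 fallers all lay below, where 18.7% and 13.6% of all tested miRNAs did so (32.3% in either direction). The calls come from the same libraries, so this describes the called miRNAs and adds no support to them.

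The direction of the balance depended on the scaling. When libraries were set to equal medians, 121 fell (14.8%) and 110 rose (13.4%), 28.2% in all, and with quantile normalization 114 rose (13.9%) and 108 fell (13.2%), 27.1% in all, so that risers made up 47.6% and 51.4% of the calls in place of 61.5%. The median tested miRNA moved from 0.05 as deposited to -0.07 with equal medians and -0.04 with quantile normalization. Without PBS replicate 3, 163 rose (19.9%) and 88 fell (10.8%), 30.7% in all, among them 194 of the 218 called with all libraries. The filter also bears on the balance, since 71 miRNAs had fewer than 3 of the 7 PBS libraries of both genotypes above the minimum and passed only with the help of bleomycin libraries. Of those, 22 were called higher and 0 lower, and 35 that had fewer than 3 bleomycin libraries above it gave 0 and 2. The 725 with 3 or more in each treatment gave 112 risers and 82 fallers.

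**Figure D2:**
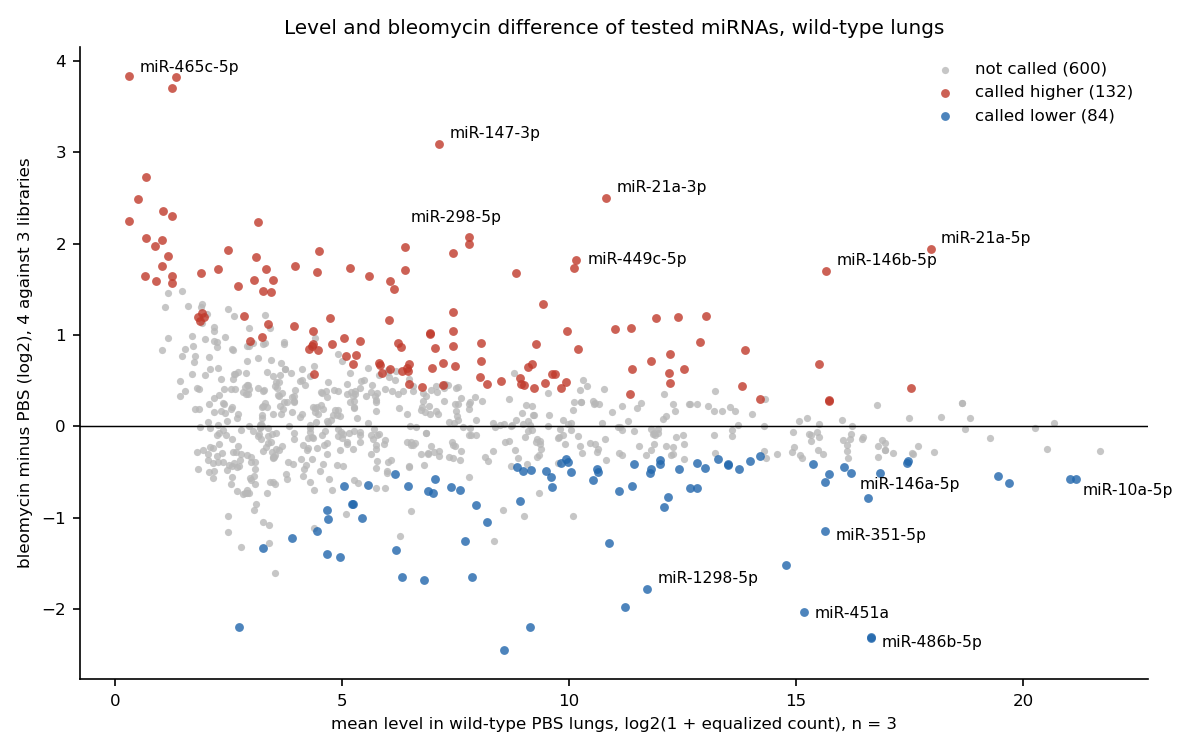
Mean level in wild-type PBS lungs (x, log2(1 + equalized count), n = 3) against the bleomycin minus PBS difference (y, log2), 1 point per tested miRNA, red for called higher, blue for called lower and grey for not called; the 2 miRNAs listed at 0 in all 3 PBS libraries are left out. The largest rises lie at low PBS levels on the left, while miR-21a-5p and miR-146b-5p rose from high levels and most abundant called miRNAs on the right fell.

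In terms of library content the falls weighed more. The 134 risers took up 2.98% to 4.37% of the summed equalized counts in PBS libraries and 8.06% to 10.2% after bleomycin. Over the same libraries the 84 fallers went from 31.9% to 34.3% down to 22.9% to 26.6%. These sums describe miRNAs chosen by their calls and test nothing further. A single miRNA, miR-21a-5p, made up 0.891% to 1.66% of PBS libraries and 4.11% to 5.58% of bleomycin libraries. Among the 10 most abundant miRNAs of PBS lungs, 4 fell and 6 were not called. The fallers were miR-10a-5p (difference -0.57 ± 0.12), miR-26a-5p (-0.58 ± 0.13), miR-181a-5p (-0.62 ± 0.14) and miR-30d-5p (-0.54 ± 0.11), in units of log2 with SE. With quantile normalization the first of them was -0.16 and the second -0.25, both still called. The 6 others were miR-143-3p at -0.27 (-0.34 and called without PBS replicate 3), miR-30a-5p at -0.25 (-0.43 and called without PBS replicate 3), miR-126a-3p at -0.13, miR-27b-3p at -0.01, miR-22-3p at 0.04 (0.43 and called with quantile normalization) and let-7f-5p at 0.10.

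Injury-linked miRNAs mostly rose, where 16.4% of all tested miRNAs did. Of 20 tested strands in 5 families (miR-21a, miR-132 with miR-212, miR-146, miR-155 with miR-147 and miR-187, and miR-221 with miR-222), 14 rose and 1 fell, with a median log2 difference of 1.49 against 0.05 over all tested miRNAs. The strand miR-21a-5p, which is raised in many injured and fibrotic tissues, measured 17.75, 17.75 and 18.39 in the PBS libraries and 19.67, 20.01, 19.85 and 20.10 after bleomycin. The lowest bleomycin library thus stood above the highest PBS library, PBS replicate 3. The difference was 1.94 ± 0.14 (SE), a 3.84-fold rise of the group mean (adjusted p = 5.13e-08), and 2.15 without that library. The other arm of the hairpin, miR-21a-3p, went from 10.60, 10.55 and 11.32 to 13.37, 13.59, 13.09 and 13.25, a difference of 2.50 ± 0.17 (SE, adjusted p = 4.27e-08).

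The hairpins of miR-132 and miR-212, transcribed together and induced by the transcription factor CREB, gave 4 risers from 4 tested arms. PBS libraries held miR-132-3p at 9.73, 10.35 and 10.27 and bleomycin libraries at 11.92, 11.72, 11.84 and 11.92. For miR-212-3p the values were 7.31, 7.53 and 7.48, then 9.54, 9.26, 9.04 and 9.51. The groups were far apart for both, with differences of 1.73 ± 0.14 and 1.90 ± 0.13 (SE), and the 5p arms followed with 1.72 and 1.96. All 4 differences lay between 1.72 and 1.96, so the arms and hairpins of this transcript moved by nearly the same amount. Together the 4 arms made up 0.00508% to 0.00766% of PBS libraries and 0.0222% to 0.0266% after bleomycin.

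The miR-146 genes, both known as feedback inhibitors of NF-kB signalling, went in opposite directions. The strand miR-146b-5p went from 15.36, 15.63 and 16.00 to 17.44, 17.25, 17.25 and 17.53, a difference of 1.70 ± 0.16 (SE, adjusted p = 1.26e-06). Its other arm, miR-146b-3p, rose too, from 5.83, 6.01 and 6.58 to 7.78, 7.51, 7.29 and 7.97. Its relative miR-146a-5p measured 16.33, 16.47 and 15.84 in PBS and 15.84, 15.54, 15.82 and 15.63 in bleomycin libraries. The groups overlap for the latter, since PBS replicate 3 lies at the level of the bleomycin libraries. Its difference of -0.51 ± 0.17 (SE, adjusted p = 0.0311) was -0.32 with quantile normalization (adjusted p = 0.168) and -0.38 without PBS replicate 2 (adjusted p = 0.158), and the call was also lost without PBS replicate 1 or bleomycin replicate 2 or 4 (adjusted p from 0.0731 to 0.116). The other arm of miR-146a, the scarce miR-146a-3p, was not called (0.44, adjusted p = 0.344). In PBS libraries 1 and 2 miR-146a-5p was above miR-146b-5p, and in all 4 bleomycin libraries it was below. Both carry the seed GAGAACU shown above, and the summed share of all miR-146 strands went from 0.547% to 0.600% up to 1.01% to 1.19%.

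Of 6 strands of miR-155, miR-147 and miR-187, linked to macrophage activation, 4 rose, the scarce miR-147-5p among them having passed the filter only through bleomycin libraries and being lost without PBS replicate 2 (1.57, adjusted p = 0.0526). The leukocyte miRNA miR-155-5p, needed for inflammatory responses of lymphocytes and myeloid cells, went from 10.66, 10.81 and 11.59 to 12.24, 12.18, 11.70 and 12.21. Bleomycin replicate 3, at 11.70, lay just above PBS replicate 3, at 11.59, and the difference was 1.06 ± 0.18 (SE, adjusted p = 0.000444). Its scarcer arm, miR-155-3p, rose by 1.49 (0.90 with a pseudocount of 10). The miRNA miR-147-3p, which macrophages induce on exposure to lipopolysaccharide, measured 6.32, 6.28 and 8.84 and then 10.26, 10.36, 9.95 and 10.37. Here PBS replicate 3 stood more than 2 log2 units above the other controls, and the difference was 3.09 ± 0.43 (SE, adjusted p = 7.47e-05), or 3.94 without it. By contrast miR-187-3p, another miRNA induced in stimulated myeloid cells, was not called, with a difference of -0.01. The strands miR-221-5p (0.58 ± 0.12, SE) and miR-222-5p (0.68 ± 0.17; 0.50 with quantile normalization, adjusted p = 0.0522) rose, while the abundant arms miR-221-3p and miR-222-3p, known to promote proliferation, were at 0.29 (0.46 and called with quantile normalization) and 0.21 and not called.

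**Figure D3:**
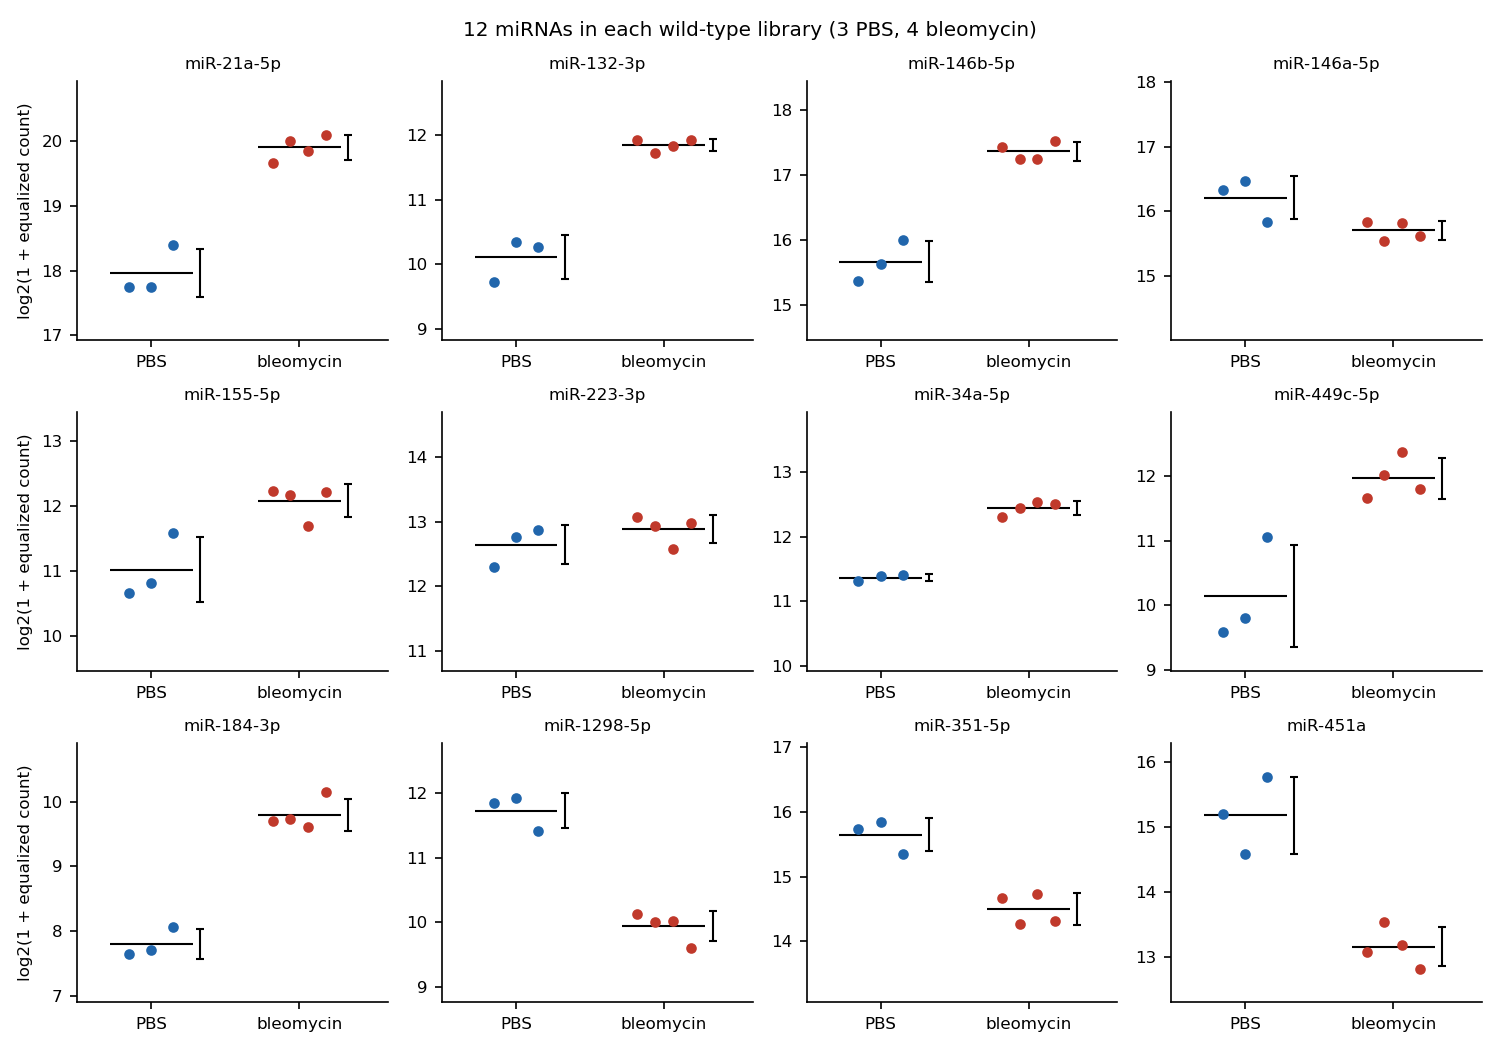
Levels in log2(1 + equalized count) of 12 miRNAs in each wild-type library, blue for PBS (n = 3) and red for bleomycin (n = 4), points ordered by replicate number, with the group mean as a line and the SD as a bar. The y axes differ in position and do not start at 0; groups overlap for miR-146a-5p and miR-223-3p and are separate in the other 10 panels.

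Leukocyte miRNAs did not move as a block. Of 7 strands of the myeloid and pan-leukocyte hairpins miR-223, miR-142a and miR-511, 5 rose and 0 fell, where 16.4% of all tested miRNAs rose. The macrophage strand miR-511-3p, from an intron of the mannose receptor gene Mrc1, went from 7.10, 7.47 and 7.76 to 8.30, 9.00, 8.46 and 9.02 (1.25 ± 0.20, SE). The pan-leukocyte strand miR-142a-5p measured 15.59, 15.35 and 15.58 in PBS and 16.17, 16.54, 15.94 and 16.09 in bleomycin libraries (0.68 ± 0.12, SE, adjusted p = 0.00061), and miR-142a-3p rose by 1.20. Because miR-142b is read from the opposite strand of the same locus and the strand setting of the counting is not given, the rise of miR-142b is not a separate result. Neutrophils and monocytes are rich in miR-223. Its less abundant arm miR-223-5p rose from 7.22, 7.48 and 7.60 to 8.63, 8.45, 8.35 and 8.50, whereas the main arm miR-223-3p, at 12.30, 12.76 and 12.87 and then 13.07, 12.92, 12.58 and 12.98, overlapped between groups and was not called (0.25 ± 0.16, SE).

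The lymphocyte miRNAs miR-150 and miR-342 moved less. The mature lymphocyte miRNA miR-150-5p had a difference of 0.07 ± 0.16 (SE) and was not called, and of 4 strands of miR-150 and miR-342 only miR-342-5p was, at 0.63. That call was lost with quantile normalization (0.48, adjusted p = 0.0599) and without PBS replicate 1 (0.57, adjusted p = 0.0553) or PBS replicate 2 (0.57, adjusted p = 0.0557). The miR-181 family, which tunes T cell receptor signalling, moved more: of 8 strands 0 rose and 4 fell, where 10.3% of all tested miRNAs fell. Without PBS replicate 3, 6 of them fell. The most abundant of them, miR-181a-5p, went from 19.65, 19.95 and 19.45 to 19.33, 18.85, 19.14 and 18.93, with no overlap. Its relative miR-181c-5p, at -0.61 ± 0.12 (SE), was no longer called with quantile normalization (-0.23, adjusted p = 0.241).

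Both arms of miR-34a, a direct target of the DNA damage regulator p53, rose. For miR-34a-5p the PBS libraries lay close together at 11.31, 11.39 and 11.41 and the bleomycin libraries at 12.30, 12.45, 12.53 and 12.50, a difference of 1.08 ± 0.12 (SE, adjusted p = 8.18e-06), or 2.11-fold. The scarcer miR-34a-3p went from 4.61, 4.87 and 4.75 to 5.56, 6.10, 5.98 and 6.07 (1.19 ± 0.29, SE). Its relatives miR-34b and miR-34c, made in ciliated cells, did not rise: miR-34b-5p was at 0.08, miR-34c-5p at -0.26 and miR-34c-3p at -0.11, none called, and these 3 are named outside the naming rule. The strand miR-34b-3p fell (-0.46 ± 0.16, SE), a call lost without PBS replicate 3 (-0.33, adjusted p = 0.146), PBS replicate 2 (-0.49, adjusted p = 0.067), or bleomycin replicate 1 (-0.34, adjusted p = 0.0986) or 2 (-0.42, adjusted p = 0.0933).

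Epithelial miRNAs split by hairpin. In the Cdc20b intron, miR-449 is known as a driver of multiciliated cell differentiation. The strand miR-449a-5p rose from 12.75, 12.96 and 13.35 to 13.94, 14.17, 14.59 and 14.23 (1.21 ± 0.24, SE), and miR-449c-5p from 9.59, 9.80 and 11.05 to 11.66, 12.02, 12.37 and 11.80 (1.82 ± 0.28, SE), or by 2.27 without PBS replicate 3, the highest control for both. The arm miR-449a-3p also rose, by 1.72 (1.11 with a pseudocount of 10), while miR-449b (1.20) and miR-449c-3p (1.04), named after their values were seen, were not called. The epithelial strand miR-184-3p went from 7.64, 7.71 and 8.07 to 9.70, 9.73, 9.60 and 10.16 (1.99 ± 0.20, SE, adjusted p = 2.05e-06), with the groups well apart. Its other arm, miR-184-5p, was below the filter.

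The miR-200 family keeps epithelial cells from a mesenchymal state by repressing Zeb1 and Zeb2. Of its 9 tested strands 0 rose and 3 fell, where 10.3% of all tested miRNAs fell. All 3 falls were small, the clearest being miR-200b-5p, from 8.94, 9.00 and 9.00 to 8.34, 8.44, 8.60 and 8.58 (-0.49 ± 0.11, SE). For the abundant miR-200c-3p the difference of -0.38 ± 0.13 (SE, adjusted p = 0.046) lay at the threshold and was lost without any 1 of 6 of the 7 libraries, bleomycin replicate 3 being the exception (adjusted p from 0.0571 to 0.140). Epithelial miR-31-5p fell from 12.73, 13.03 and 12.71 to 12.42, 12.04, 12.18 and 11.95 (-0.68 ± 0.13, SE). The basal cell miRNA miR-205-5p, at 10.70, 9.99 and 11.95 and then 10.01, 9.53, 9.43 and 9.44, fell by 1.28, but by 0.75 without PBS replicate 3, when it was not called (adjusted p = 0.0841). In the cluster of miR-183, miR-96 and miR-182, found in sensory and airway cells, the abundant arms miR-182-5p (-0.19), miR-183-5p (0.01) and miR-96-5p (-0.12) were not called. The 2 called of its 6 strands were scarce passengers that rose, miR-183-3p (0.45 ± 0.15, SE; lost without PBS replicate 1 or bleomycin replicate 2 or 4 and with both other scalings, 0.28 with quantile normalization) and miR-96-3p, which passed the filter only through bleomycin libraries and measured 0.06, 0.06 and 1.43, then 2.82, 3.01, 3.40 and 2.79.

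Matrix and mesenchymal miRNAs went both ways. Over all tested miRNAs 16.4% rose and 10.3% fell, or 13.4% and 14.8% with equal library medians. Of 6 strands of miR-199 and miR-214, which fibroblasts make from the Dnm3os transcript, 5 rose and 0 fell (2 and 0 with equal library medians). The strand miR-214-3p rose from 11.51, 11.78 and 12.13 to 12.65, 12.47, 12.43 and 12.54 (0.71 ± 0.13, SE, adjusted p = 0.000708), and miR-199a-5p by 0.44. The identical strands miR-199a-3p and miR-199b-3p, at 0.28 and 0.29, count as 1 result, though the 5 of 6 include both. With equal library medians they were at 0.16 and 0.17 and not called (adjusted p = 0.251 and 0.228). With quantile normalization they were at 0.50 and 0.55, and both calls were lost without bleomycin replicate 2 or 4 or PBS replicate 1 or 2 (adjusted p from 0.059 to 0.165), that of miR-199a-3p also without bleomycin replicate 3 (adjusted p = 0.0515). Smooth muscle miR-143 and miR-145a gave 2 fallers of 4 strands, 3 without PBS replicate 3 and 4 with equal library medians. The 2 were miR-145a-3p (-0.42 ± 0.10, SE) and miR-145a-5p (-0.52 ± 0.14). The latter was at -0.24 with quantile normalization (adjusted p = 0.216) and -0.46 without PBS replicate 1 (adjusted p = 0.0613). Of 7 strands of the miR-29 family, which represses collagens and other matrix genes, miR-29a-3p fell (-0.40 ± 0.12, SE) and the other 6 were not called. That fall was lost with quantile normalization (-0.14, adjusted p = 0.369) and without PBS replicate 2 (-0.30, adjusted p = 0.107). Without PBS replicate 3, 3 strands were called lower, among them miR-29c-3p (-0.45, adjusted p = 0.0408) and miR-29b-2-5p (-0.56, adjusted p = 0.0434). The most often studied member, miR-29b-3p, was at 11.78, 11.96 and 11.88 and then 11.39, 11.97, 11.98 and 11.84, a difference of -0.07 ± 0.22 (SE) with a 95% interval from -0.55 to 0.40.

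Of 11 strands of the related families of miR-99, miR-100 and miR-125, 3 rose and 5 fell (1 and 5 with equal library medians). The shares over all tested miRNAs were 16.4% and 10.3% (13.4% and 14.8%). The 5p strands miR-100-5p (-0.47 ± 0.09, SE), miR-125b-5p (-0.45 ± 0.10) and miR-125a-5p (-0.38 ± 0.09; -0.18 with quantile normalization, adjusted p = 0.0734) fell. The guide miR-99a-5p and its passenger miR-99a-3p (-0.50 ± 0.11, SE) fell together, while miR-100-3p, at -0.07, was not called. By contrast miR-125b-1-3p, the passenger strand of 1 of the miR-125b genes, rose from 9.70, 9.89 and 10.29 to 11.09, 10.90, 10.81 and 11.22 (1.05 ± 0.14, SE, adjusted p = 6.22e-05). The passenger of the other gene, miR-125b-2-3p, was at -0.07 and not called, and was looked up after the first had been seen. Both genes give the same 5p strand, so the 3p strands are the ones that separate them.

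Endothelial miR-126, which supports vessel integrity, was not called on any of its 4 strands, with differences from -0.13 to 0.26, though miR-126a-5p was at the threshold without PBS replicate 2 (0.38, adjusted p = 0.0499). The abundant miR-126a-3p measured 19.35, 19.50 and 18.99 and then 19.09, 19.11, 19.24 and 19.16, a difference of -0.13 ± 0.14 (SE) with a 95% interval from -0.42 to 0.17. Reads of miR-126b-3p and miR-126a-5p cannot be told apart, their values being nearly equal in every library.

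Red cell miRNAs fell steeply. Of 7 strands of miR-451a, miR-144 and miR-486, 6 fell, where 10.3% of all tested miRNAs did. The median over the 7 was -2.20 (-1.84 without PBS replicate 3). The erythrocyte miRNA miR-451a went from 15.20, 14.58 and 15.78 to 13.08, 13.54, 13.18 and 12.81, with no overlap and a difference of -2.03 ± 0.47 (SE, adjusted p = 0.00408), or -1.74 without PBS replicate 3. For miR-486a-5p, also made in muscle, the values were 16.60, 16.02 and 17.34 and 14.63, 14.22, 14.48 and 14.03 (-2.31 ± 0.41, SE). The copies miR-486a and miR-486b cannot be separated by reads and count once as a result. The 6 of 7, the median and the summed share given here nevertheless include both copies. Together the 7 strands made up 0.652% to 1.90% of PBS libraries and 0.207% to 0.299% after bleomycin. How much blood was left in each flushed lung was not measured. Its part in this and in every other result was not tested.

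The summed content of striated muscle miRNAs was highest in PBS replicate 3. Of 11 tested strands 2 fell (4 with quantile normalization or equal library medians), where 10.3% of all tested miRNAs fell (13.2% and 14.8%). The summed share was 0.0685% to 0.404% in PBS and 0.0462% to 0.0732% in bleomycin libraries. The skeletal and cardiac miR-133a-3p fell from 14.19, 13.88 and 16.24 to 13.28, 12.85, 13.72 and 13.16, by 1.52, or by 0.79 without PBS replicate 3 (adjusted p = 0.0404). The cardiac miR-208b-3p fell too (-0.56 ± 0.16, SE), a call lost without PBS replicate 1 (-0.48, adjusted p = 0.0751) or 2 (-0.48, adjusted p = 0.0799). Muscle miR-206-3p, below the filter, was at 7.03 in PBS replicate 3 and at 0.26 to 2.36 in the other 6 libraries. Whether that library held more muscle was not tested.

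**Figure D4:**
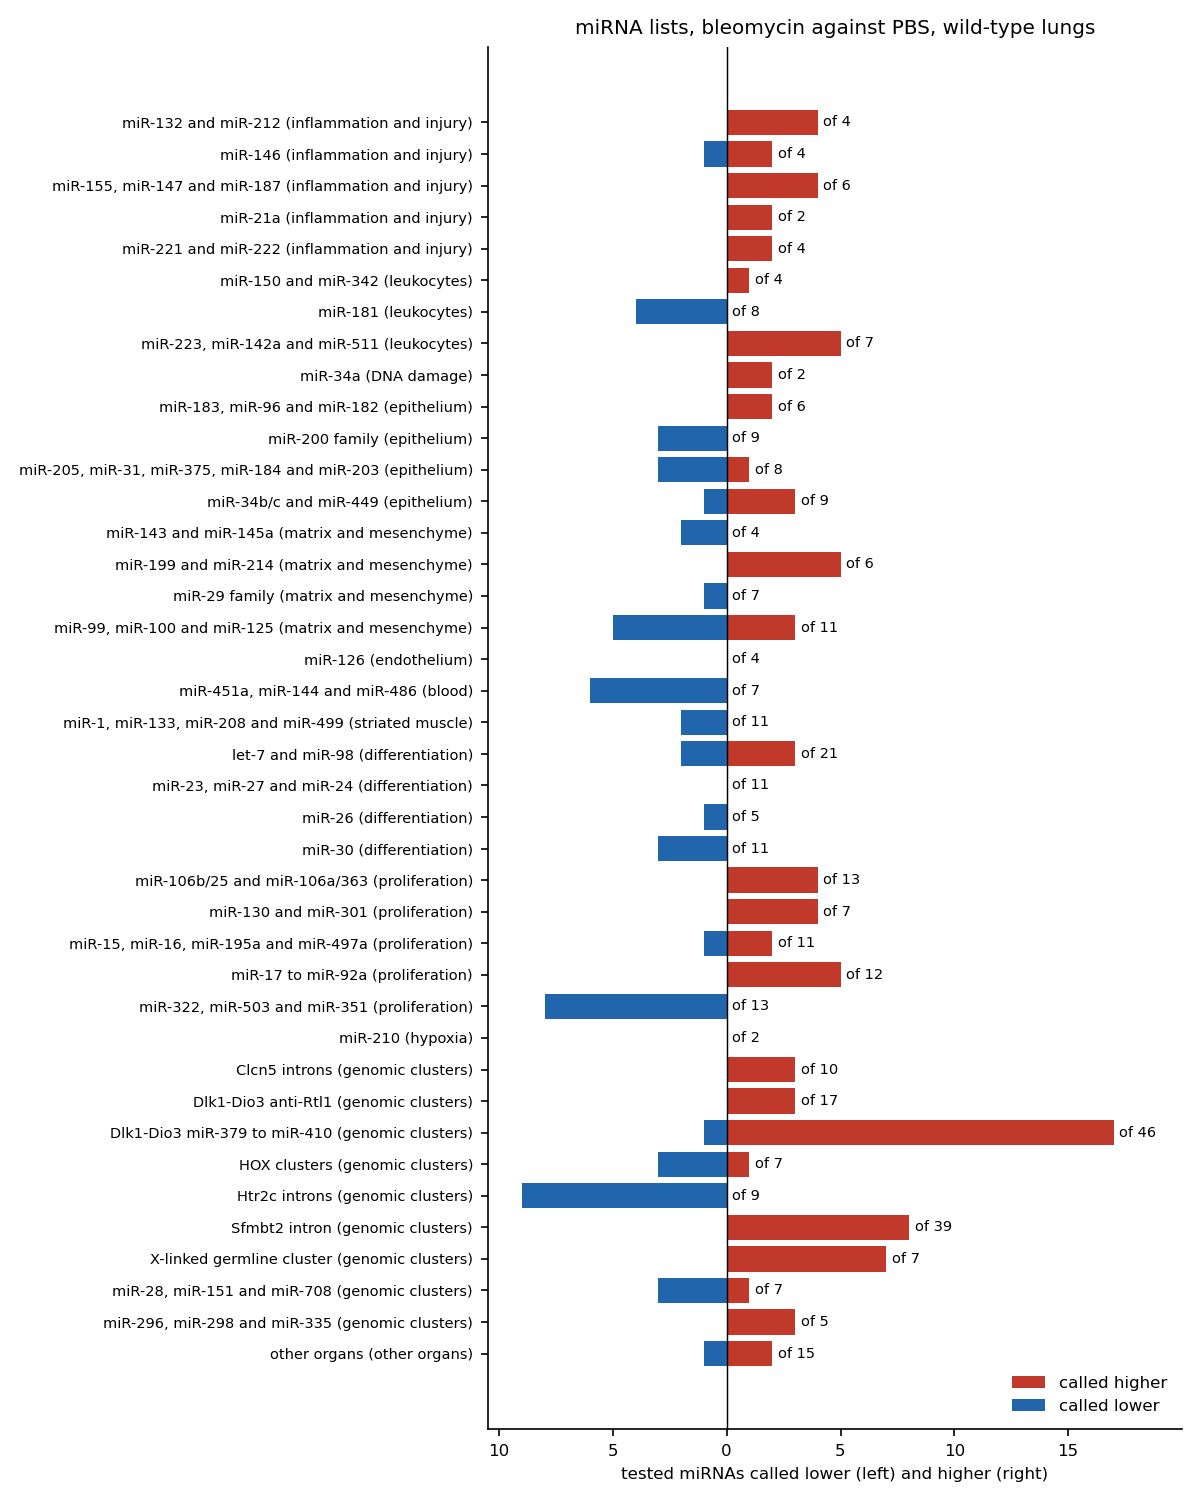
Tested miRNAs called higher (red, to the right) and called lower (blue, to the left) after bleomycin in each of 40 lists of families and clusters, with the number tested written beside the bar and the group of each list in brackets. Bars to the right outnumber those to the left among injury lists, and the Htr2c, red cell and miR-322 lists point to the left.

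Proliferation-linked families differed from one another. The clusters of miR-17 to miR-92a and of miR-106, targets of MYC and E2F that promote the cell cycle, gave 9 risers and 0 fallers of 25 tested strands, or 6 and 1 with equal library medians. Over all tested miRNAs 16.4% rose and 10.3% fell, or 13.4% and 14.8% with equal library medians. Several of the 9 calls were fragile. The rise of miR-17-5p, 0.36, was lost with equal library medians (0.24, adjusted p = 0.125) and without PBS replicate 1 (0.30, adjusted p = 0.0811), and that of miR-20b-5p, 0.60, with quantile normalization (0.43, adjusted p = 0.0602). The strand miR-18a-5p, at 8.42, 8.61 and 9.45 and then 9.14, 11.28, 10.71 and 10.89, rose by 1.68 although bleomycin replicate 1 lay below PBS replicate 3, and it was not called without PBS replicate 1 (1.47, adjusted p = 0.0569).

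In the miR-130 and miR-301 family 4 of 7 strands rose, where 16.4% of all tested miRNAs did. The clearest was miR-301b-3p, from 5.60, 5.53 and 5.65 to 7.03, 7.63, 7.18 and 7.13 (1.65 ± 0.18, SE, adjusted p = 3.5e-06). Its neighbour in the same cluster, miR-130b-3p, rose by 0.85. The opposite held for the X-linked cluster of miR-322, miR-503, miR-351, miR-542 and miR-450, which is induced when cells leave the cycle. It had 0 risers and 8 fallers of 13 strands, where 10.3% of all tested miRNAs fell. There miR-351-5p went from 15.74, 15.85 and 15.36 to 14.68, 14.26, 14.73 and 14.31 (-1.15 ± 0.18, SE, adjusted p = 0.000244), or by -0.71 with quantile normalization. Both miR-351 arms fell, and miR-503-3p (-0.66 ± 0.12, SE) and miR-542-5p (-0.81 ± 0.15) with them.

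Of 48 strands of families known to be high in differentiated tissue, let-7 with miR-98, miR-30, miR-26, and miR-23 with miR-27 and miR-24, 3 rose and 6 fell, 18.8% against 26.7% of all tested miRNAs. Without PBS replicate 3 the numbers were 3 and 12, with 7 of 11 miR-30 strands lower in place of 3, and with equal library medians they were 2 and 12. Within let-7, which represses growth genes, let-7i-5p rose from 17.54, 17.55 and 17.48 to 17.76, 17.99, 17.99 and 18.04 (0.42 ± 0.08, SE), while let-7d-5p (0.09 ± 0.12) was not called (0.44 with quantile normalization, adjusted p = 0.00615). Neither arm of the hypoxia-induced miR-210 was called, with miR-210-3p at -0.19 (-0.31 and called with equal library medians) and miR-210-5p at -0.51, the latter called without bleomycin replicate 1 (-0.84, adjusted p = 0.00676).

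Clusters of neighbouring hairpins differed in how many of their strands were called. All 9 tested strands from the introns of Htr2c, which encodes a serotonin receptor, fell, with a median of -1.65. PBS libraries held miR-1298-5p at 11.84, 11.93 and 11.41 and bleomycin libraries at 10.14, 10.00, 10.03 and 9.60, a difference of -1.78 ± 0.15 (SE, adjusted p = 1.61e-07), or 3.45-fold lower. For miR-448-3p the values were 7.72, 7.94 and 7.95, then 6.29, 6.37, 6.46 and 5.75, and for miR-1912-3p they were 6.17, 6.64 and 6.17, then 4.77, 4.80, 4.73 and 4.42. Over all tested miRNAs 10.3% fell, and 13.6% had all bleomycin libraries below all PBS libraries. In the cluster no bleomycin library reached a PBS library in any of the 9 strands. The other 6 differences ran from -2.20 (miR-448-5p, which passed the filter only through PBS libraries and was -0.57 with a pseudocount of 10) to -1.15. In summed content the cluster went from 0.0164% to 0.0192% of PBS libraries down to 0.00481% to 0.00684%.

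Among imprinted loci, 3 of 5 strands of miR-296, miR-298 and miR-335 rose. Near Gnas, miR-298-5p went from 7.65, 7.66 and 8.08 to 10.18, 9.61, 9.64 and 10.06 (2.08 ± 0.21, SE) and miR-296-3p from 4.41, 3.22 and 4.30 to 5.82, 5.63, 5.63 and 5.87 (1.76 ± 0.28, SE), while miR-296-5p was not called (0.36). In an intron of Mest, miR-335-3p rose from 11.81, 11.82 and 12.12 to 12.94, 12.98, 13.09 and 13.41 (1.19 ± 0.11, SE, adjusted p = 1.26e-06), while the equally abundant arm miR-335-5p was at 0.17 ± 0.10 and not called. In the Dlk1-Dio3 region, an imprinted domain expressed mostly before birth, 17 of 46 strands from miR-379 to miR-410 rose and 1, miR-668-3p (-1.0), fell. Without PBS replicate 3 the numbers were 26 and 1. The strand with the smallest p there, miR-380-3p, went from 4.90, 4.57 and 6.04 to 7.08, 6.97, 6.81 and 6.78 (1.73 ± 0.26, SE), or by 2.17 without that library. The neighbouring anti-Rtl1 group gave 3 risers of 17 strands, a share near the 16.4% of all tested miRNAs, and 7 without PBS replicate 3. One of the 3, miR-433-5p, passed the filter only through bleomycin libraries, and each of the 3 calls was lost without at least 1 library, PBS replicate 1 in every case.

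Of all tested miRNAs 16.4% rose and 10.3% fell, the shares beside which the counts of the next 3 clusters stand. Of 39 strands from the Sfmbt2 intron, near-identical copies whose reads cannot be assigned with certainty, 8 rose, a share near that of all tested miRNAs. The number was 11 without PBS replicate 3, and 2 with quantile normalization. Of the 8, miR-297b-5p and miR-466n-3p, named after their values were seen, passed the filter only through bleomycin libraries. In the introns of Clcn5, 3 of 10 strands rose, among them miR-501-3p (0.68 ± 0.12, SE) and miR-188-5p (0.71 ± 0.15), and miR-500-3p (0.23) was not called. In the HOX clusters 1 of 7 strands rose and 3 fell. The riser, miR-196a-5p (2.35 ± 0.54, SE; 0.86 with a pseudocount of 10), was scarce, at 1.19, 1.20 and 0.82 and then 3.50, 2.79, 4.47 and 2.94, and passed the filter through bleomycin libraries. The abundant miR-10a-5p went from 21.20, 21.36 and 20.94 to 20.70, 20.47, 20.65 and 20.55 and miR-10a-3p fell with it, by 0.47 (by 0.39 without PBS replicate 2, adjusted p = 0.0537). The fall of miR-10b-5p, -0.78 ± 0.22 (SE), was lost without PBS replicate 3 (-0.53, adjusted p = 0.0725) and with quantile normalization (-0.53, adjusted p = 0.0642).

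An X-linked germline cluster, from miR-743 to miR-465, known from testis, was listed near 0 in PBS lungs and above the filter in bleomycin lungs. Of its 24 strands in the table, 7 were tested and 17 were below the filter. All 7 except miR-871-3p had fewer than 3 of the 7 PBS libraries of both genotypes above the minimum and passed through their bleomycin libraries, so that they were called is no support for the cluster. Values of miR-881-3p were 0.00 in all 3 PBS libraries and 4.06, 3.22, 3.78 and 3.97 after bleomycin, and of miR-743b-3p again 0.00 and then 3.10, 2.42, 3.26 and 3.99. The strand miR-470-5p measured 0.14, 1.81 and 1.80 and 4.79, 4.98, 4.82 and 5.22, and miR-465c-5p 0.03, 0.03 and 0.88 and 3.74, 4.32, 4.45 and 4.11. No fold is given, because a small positive value may stand for 0 reads after equalization. The near-identical miR-465b-5p and miR-465c-5p count once. Even in bleomycin libraries the 7 strands made up 0.000647% to 0.000844% of the sum.

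Outside the lists, the smallest p-values belonged to miR-1983 (from 4.08, 4.73 and 4.57 to 6.13, 6.15, 6.14 and 6.15, a rise of 1.68 ± 0.21, SE) and miR-3475-3p (from 3.97, 4.73 and 4.76 to 6.58, 6.04, 6.36 and 6.64, 1.92 ± 0.26). Among fallers they belonged to miR-328-3p, from 12.73, 12.65 and 12.62 to 12.13, 11.95, 11.96 and 11.93 (-0.68 ± 0.09, SE), and miR-676-3p, from an intron of Eda, from 12.21, 12.18 and 12.13 to 11.43, 11.19, 11.49 and 11.48 (-0.77 ± 0.11, SE). The 2 falls were under 1 log2 unit, but the libraries within each group lay so close that the groups stood clear of each other. In all, 427 tested miRNAs were in none of the 40 lists, with 35 risers and 24 fallers, against 99 and 60 of the 391 listed ones. Of all tested miRNAs 26.7% were called. The lists were chosen with earlier results of these data known, so the difference between listed and unlisted miRNAs tests nothing.

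The arms of a hairpin come from 1 transcript, and 234 hairpins had both arms tested. In 20 of them both arms rose, in 16 both fell, in 76 only 1 arm was called and in 120 neither was. Of the 76 the uncalled arm had the same sign in 62. Opposite calls occurred in 2 hairpins. In miR-125a the 5p arm fell and the 3p arm rose (-0.38 ± 0.09 and 0.47 ± 0.14, SE), and in miR-455 the 5p arm rose and the 3p arm fell (0.58 ± 0.10 and -0.41 ± 0.13, SE). Neither pair was called on both arms under every alternative: miR-125a-3p was lost without PBS replicate 2 (0.40, adjusted p = 0.0847) or bleomycin replicate 4 (0.39, adjusted p = 0.0614). The call of miR-455-3p was lost without PBS replicate 2 or 3 or bleomycin replicate 2 or 3 (-0.40 to -0.37, adjusted p from 0.0508 to 0.0769).

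Mature sequences were found in the RefSeq table for 688 of the tested miRNAs, 185 of them called. Their seeds were grouped, and 4 seeds had 3 or more called members. GGCAGUG had 3 risers of 4 tested (miR-34a-5p, miR-449a-5p and miR-449c-5p, with miR-34b-5p not called). CCCUGAG had 3 fallers of 3 (miR-351-5p, miR-125b-5p and miR-125a-5p). ACAUUCA, of miR-181, had 3 fallers of 4, and AAAGUGC, of miR-17 and its relatives, 3 risers of 6. Members of a seed that went in opposite directions were found for 4 seeds. Beside miR-146a-5p and miR-146b-5p, they were miR-28a-5p (0.63 ± 0.14, SE) with miR-708-5p (-0.87 ± 0.25; -0.60 without PBS replicate 3, adjusted p = 0.0829, and -0.85 without PBS replicate 1, adjusted p = 0.0516), and pairs from the miR-99 and let-7 passenger strands. What these seeds do to messenger RNAs was not measured.

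The same contrast in R213G lungs rests on other libraries, though the estimate of the spread and the filter are shared. The filter counted libraries of both genotypes. Of the wild-type risers, 22 passed it only with the help of bleomycin libraries, and 2 of the fallers only with the help of PBS libraries. For those, agreement between the genotypes is partly built in. In R213G lungs 182 miRNAs rose (22.2%) and 162 fell (19.8%), 42.1% in all. Of the 134 wild-type risers, 104 also rose in R213G lungs, 77.6% of the wild-type list and 57.1% of the R213G list. Of the 84 wild-type fallers, 73 also fell there, 86.9% of the wild-type and 45.1% of the R213G list. The sign was the same for 215 of the 218. Those with opposite signs were miR-96-3p (2.49 in wild type, -0.24 in R213G), miR-18a-3p (0.43, -0.02) and miR-466b-3p (0.97, -0.81), the last called in each genotype, and they are named after their values were seen. With quantile normalization the wild-type rises of miR-18a-3p and miR-466b-3p were not called (adjusted p = 0.186 and 0.158). A test of the difference between the genotypes' responses by limma called 0 of 818 (0.0%), with 65 (7.95%) at an unadjusted p under 0.05 and a smallest adjusted p of 0.399. Differences in the red cell strand miR-451a were -2.03 in wild type and -0.52 in R213G, and in miR-142a-5p 0.68 and 0.21, neither separable after adjustment.

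**Figure D5:**
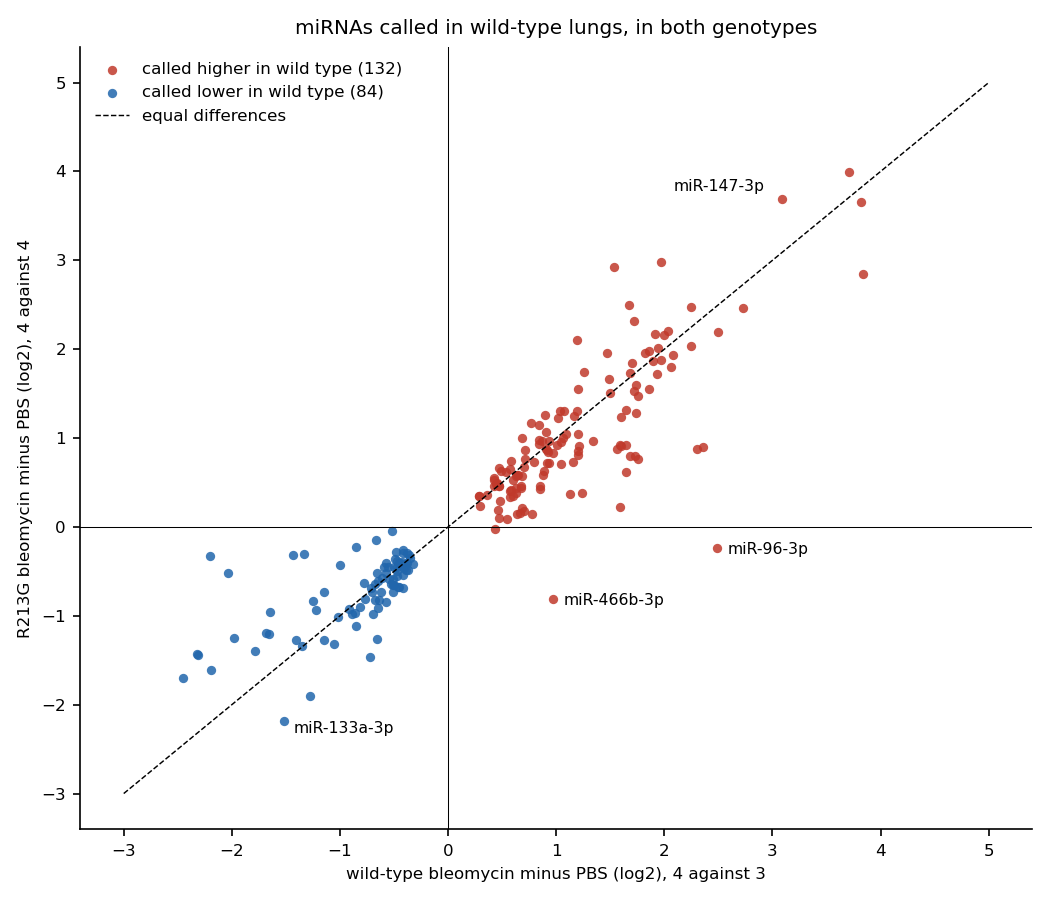
Bleomycin minus PBS difference (log2) in wild-type lungs (x, 4 against 3 libraries) and in R213G lungs (y, 4 against 4) for miRNAs called in wild type, red for called higher and blue for called lower; the 2 miRNAs listed at 0 in all wild-type PBS libraries are left out and the dashed line marks equal differences. All but 3 of the points plotted lie in the quadrants of equal sign.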

How the data were processed

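Small RNA sequencing of whole lungs was compared in 4 wild-type bleomycin and 3 wild-type PBS libraries, grouped by their titles. The authors deposited 1 table of log2 values for 1424 mature mouse miRNAs in 15 libraries. From the values, each looks like the log2 of a read number, brought to 1 library size for all, plus 1, and not divided by length, which is an inference. The authors' name for the values, however, mentions RPKM, a measure that is divided by length. Bowtie2 2.3.2, SAMtools 1.9 and edgeR are named without roles, per the submitters' processing notes, while genome build, miRBase release and strand setting were not given in the sources used here. Standard Illumina libraries were made from DNase-treated RNA, per the labels' protocols. Because of the equalization a library without reads can hold a small positive value, read depth could not be recovered, and no count model was run. The library sums are not read depths, so no counting interval is given. The authors' own fold, p-value and q-value columns were not used.

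The 818 miRNAs whose equalized count passed 5 in 3 or more of 15 libraries were tested. The deposited log2 values were fitted with limma 3.58.1 in R 4.3.3, with a mean for each of the 4 groups of genotype and treatment, a spread shared by all 15 libraries and an intensity trend. P-values are two-sided, adjusted by Benjamini-Hochberg over the 818, and a call is an adjusted p under 0.05. Differences are bleomycin minus PBS on the scale of log2(1 + equalized count), which understates the change of scarce miRNAs. The median 95% interval extended 0.51 either side of the difference, and 0.29 for the 287 miRNAs with a mean above 8. The script was tested on simulated data. No libraries held identical values.

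Replicate numbers 1 to 3 occur in both groups. Alternatives left out each library in turn, used the wild-type libraries only, blocked on the replicate number, changed the filter, pseudocount, scaling, intensity trend, library weights and threshold. Families and clusters were assigned by name stem, and sequences and host genes came from RefSeq (GRCm38.p6) and GENCODE vM21. The miRNAs to name were set by a rule that gives 185, of which the text describes part and counts the rest within their lists: the 15 risers and 15 fallers with the smallest p, the 8 of each with the largest difference, up to 4 members of each list by p (all in lists of 6 or fewer), the 10 most abundant in PBS lungs, hairpins with opposite arms, the 8 hairpins with the largest agreeing arms, called members of shared seeds and 10 miRNAs of known interest. Exceptions are stated. The members and lists were chosen with earlier results of these data known.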

Additional observations from a re-analysis of the deposited data

Results flagged for a closer look

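In 11 of the 185 miRNAs of the naming rule, 1 of the 4 bleomycin libraries lay far from the others, its gap to the nearest exceeding the 95% critical value of Dixon's test for 4 samples. Chance alone gives such a gap in about 1 of 20 groups. Bleomycin replicate 1 was the distant library for miR-150-5p (16.47 against 15.94 to 15.99), miR-187-3p (10.68 against 11.18 to 11.22), miR-205-5p (10.01 against 9.43 to 9.53), miR-26a-2-3p (7.26 against 8.17 to 8.29), miR-29c-5p (8.13 against 8.66 to 8.73), miR-328-3p (12.13 against 11.93 to 11.96) and miR-411-3p (8.21 against 8.36 to 8.39), in log2(1 + equalized count). Bleomycin replicate 3 was the distant library for miR-10a-3p (10.04 against 10.17 to 10.2), miR-155-5p (11.7 against 12.18 to 12.24) and miR-30b-5p (16.6 against 16.41 to 16.44), in log2(1 + equalized count). Bleomycin replicate 4 was the distant library for miR-335-5p (12.72 against 12.41 to 12.45), in log2(1 + equalized count). Each of the 5 called among them (miR-155-5p, miR-328-3p, miR-411-3p, miR-205-5p and miR-10a-3p) stayed called without its distant library.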

How the results depend on the processing

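Leaving out each library in turn gave 167 to 251 called miRNAs, with 101 to 163 higher and 66 to 90 lower. With replicate numbers as a block, 132 were higher and 83 lower. Same-numbered libraries did not deviate together (correlations -0.04, -0.14 and -0.09, none best with its own number), so the numbers were not taken as pairs. Over all 17 alternatives the counts stayed within 1.5 times the main ones, and no called value of the 185 miRNAs of the naming rule changed sign. Of the 136 called among them, 86 kept the call under every alternative at the same threshold and 50 lost it under at least 1, most often without PBS replicate 1 (29 results) or 2 (27). The cause was not tested. Of those not called, 23 gained a call somewhere, and 14 uncalled miRNAs changed sign, with values no larger than 0.12. Read depth is unknown, so differences among scarce miRNAs have no counting error, and 3 control libraries, 1 of them apart from the others, limit every estimate.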
